A study of Drosophila melanogaster with 8 samples.

Results

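The CG32208 family cells of the late Drosophila embryo were picked by a set of short, poorly described genes that lie in 2 groups on chromosome arm 3L. A cell was taken as 1 of them when at least 4 of the 10 genes CG13068, CG13067, CG13066, CG13047, CG14096, CG32214, CG32208, CG12519, CG18294 and CG32213 each had at least 2 unique molecular identifiers (UMIs, counts of captured transcript molecules). This rule found 613 cells among 27932 that passed a filter of at least 200 genes and under 20% mitochondrial UMIs (2.19%, exact Clopper-Pearson 95% interval 2.03% to 2.37%). The working label calls them cuticle-forming, and cuticle protein genes were among their most abundant transcripts. Most of them also carried the tracheal genes trh and btl, and 93.0% of them fell in a single cluster when all cells were grouped without the 10 genes.

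Insect cuticle is secreted at the apical surface of the ectodermal epithelia, which include the epidermis, the tracheal tubes that carry air, and the foregut and hindgut. It is built from chitin, made at the membrane by the chitin synthase kkv, and from families of proteins laid down with it, among them the chitin-binding Cpr proteins and the Tweedle proteins. Tracheal cells are specified by trh, a bHLH-PAS transcription factor, and need btl, an FGF receptor, for their branches to grow. No role for the 10 genes themselves is given by the sources used here.

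The study dissociated pools of whole stage 17 embryos, kept at 25 °C and taken between 17 and 18.5 h of age, and captured single cells on the 10x Genomics platform. All animals were of 1 strain, which carried the drivers alrm-gal4 and 25H07-gal4 with the reporters UAS myr::GFP and UAS-redstinger::NLS, and no step of sorting for these reporters is described. There was 1 condition, with 4 biological replicates each sequenced on 2 lanes (8 samples). The deposited matrix pools all 8, and its barcode suffixes carry no sample names, so it was treated as 1 sample and no test between cell classes was made.

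Suffixes n and n+4 shared at least 99.6% of the barcodes of the smaller run, whereas other suffixes shared at most 0.422%, and each such pair was summed to 4 library pairs. The 4 library pairs held 7309, 6589, 7164 and 6870 kept cells, with medians of 3519, 4279, 4296 and 4326 UMIs per cell. Library pair 1 stood apart for these cells. It held 20 of them (0.274% of its kept cells, 0.167% to 0.422%), against 201 (3.05%, 2.65% to 3.49%), 197 (2.75%, 2.38% to 3.16%) and 195 (2.84%, 2.46% to 3.26%) in pairs 2, 3 and 4. Without pair 1 the share of member cells was 2.88%. No label tells the libraries apart, and the cause of this difference was not tested.

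**Figure D1:**
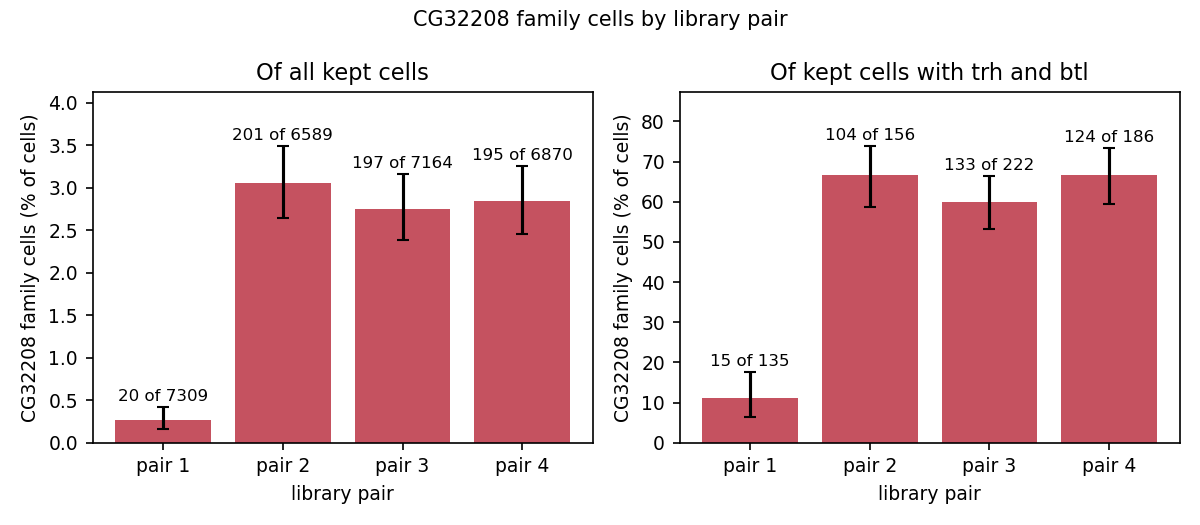
Share of CG32208 family cells in each library pair, as percent of all kept cells (left) and of kept cells with a UMI of both trh and btl (right). Bars are shares, black lines exact 95% binomial intervals that cover counting error only, and the numbers give cells. Pair 1 is at 0.274% and 11.1%, below the intervals of pairs 2 to 4 in both panels.

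The CG32208 family cells were deeply sampled. They held a median of 16924 UMIs (439 to 231583) and 1761 genes with 4.33% mitochondrial UMIs, against 4069 UMIs, 1098 genes and 7.04% over all kept cells. Their share was 0.215% of the 6979 shallowest cells (292 to 2077 UMIs) and 10.8% of the 2794 deepest (from 17665 UMIs). When every cell was thinned to 1000 UMIs, 389 of 25891 cells met the rule (1.5%). Thinning can only lower a count, so all 389 had to be among the 613. The rule therefore leans towards deep cells, and a shallow cell of the same kind can be missed.

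The 10 genes chose the cells, so their levels are a description. Together they made up 4.20% of the UMIs of the CG32208 family cells, and these cells held 96.3% of all UMIs of the 10 genes in kept cells. A cell had a median of 430 such UMIs (11 to 17738), or 3.07% of its total (0.0704% to 15.2%). Of the 613 cells, 271 had all 10 genes at 2 or more UMIs. Just inside the rule, the 46 cells with 4 genes had a median of 86 UMIs of the 10 genes (13 to 368), and just outside it the 64 cells with 3 genes had 66.5 (8 to 370). The threshold thus cuts through a continuous range, and 71.7% of the former and 68.8% of the latter had a UMI of trh.

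Levels are given as CPM, the summed UMIs of a gene in a set of cells per 1000000 summed UMIs of that set. CG13067 was the most abundant of the 10, at 11687 CPM against 17.6 CPM in all other kept cells, with a median of 123 UMIs per cell (quartiles 32 and 348). Its level was 2286, 14237, 9667 and 12897 CPM in the CG32208 family cells of pairs 1 to 4, so the 20 cells of pair 1 were low for it. CG32208 itself stood at 2250 CPM (411, 2691, 1972 and 2413 CPM over the pairs) against 0.931 CPM elsewhere, and 88.6% of the chosen cells had a UMI of it. CG18294 was at 2038 CPM (800, 2436, 1797 and 2117 CPM), with a UMI in 93.3% of cells. CG13068 was the gene of the 10 with most cells at 0, at 2760 CPM (662, 4162, 1861 and 2776 CPM) with no UMI in 190 of the 613 cells and up to 2910 UMIs in 1 cell. CG12519 (5343 CPM), CG14096 (3330), CG13066 (3093), CG32214 (2803) and CG32213 (571) lay between 0.550 and 3.23 CPM in all other cells, and each was lower in pair 1 than in pairs 2 to 4.

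CG13047 was the exception. It reached 8114 CPM in the CG32208 family cells, with 8712, 8279, 7976 and 8033 CPM in pairs 1 to 4, so pair 1 was not low for it. It was also seen outside them, at 105 CPM in all other cells and with a UMI in 68.3% of the 243 cells that had trh and btl and met neither the rule nor a similar rule for Tweedle genes given further on. Only 86.8% of its UMIs lay in the CG32208 family cells, against 98.3% to 99.5% for the other 9 genes.

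**Figure D2:**
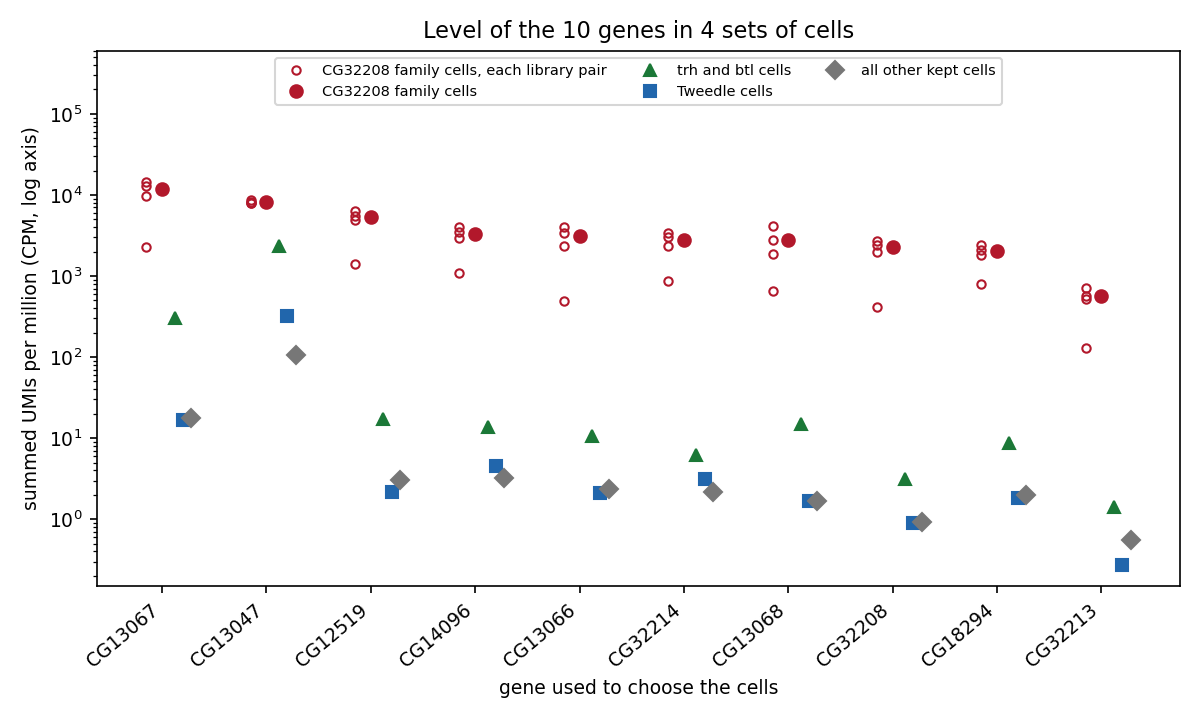
Level of each of the 10 genes (CPM, log axis) in the CG32208 family cells, in each of their 4 library pairs (open circles), in trh and btl cells, in Tweedle cells and in all other kept cells. CG13047 is the only gene of the 10 above 1000 CPM in the trh and btl cells, and the lowest open circle of each gene but CG13047 is pair 1.

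Free RNA can put a UMI of a gene into a droplet whose cell does not express it. Cells with at least 2 UMIs of several muscle, hemocyte or neuron markers were taken to lack the 10 genes, which was not tested. CG32208 had a UMI in 0.731%, 0.679% and 0.682% of these 1916, 5152 and 7182 cells, at medians of 4648, 4625 and 4351 UMIs. The share in all other kept cells was 0.655%, and at 1.12% in Tweedle cells and 2.88% in trh and btl cells it was a small part of the 88.6% in the chosen cells. CG13067 had a UMI in 96.6% of the CG32208 family cells and in 5.06%, 2.76% and 4.20% of these muscle, hemocyte and neuron classes.

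The 10 genes form 2 groups on 3L (coordinates from annotation release 54 of the BDGP6 assembly, in which all 10 are protein coding with 2 or 3 exons and span 513 to 815 bp). CG13068 (16269392 to 16269911, plus strand), CG13067 (16271282 to 16271918, plus), CG13066 (16272909 to 16273608, plus) and CG13047 (16284680 to 16285396, minus) lie within 16.0 kb. CG14096 (19466567 to 19467079, minus), CG32214 (19467346 to 19468160, plus), CG32208 (19471656 to 19472228, minus), CG12519 (19472491 to 19473145, plus), CG18294 (19475017 to 19475578, minus) and CG32213 (19475839 to 19476423, plus) lie within 9.86 kb, 3.18 Mb away. These 6 sit as head-to-head neighbours on opposite strands. Where 2 of them hold near-identical sequence the authors' counting could split or drop reads, and since no sequences were compared here, single-gene levels within the group are uncertain.

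Both groups were on in the same cells. The group of 4 summed to 25654 CPM (12147, 30675, 21875 and 27134 CPM in pairs 1 to 4) and the group of 6 to 16336 CPM (4684, 19500, 14426 and 17199 CPM). All 4 genes of the first had at least 2 UMIs in 348 cells (56.8%), and all 6 of the second in 359 (58.6%). No gene of the first group reached 2 UMIs in 1 cell, and no cell lacked the second group. The rule asks for 4 genes of any kind, which fixes part of this overlap.

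Genes next to the 10 were not used by the rule. Among 11095 features outside the 10 with enough UMIs to compare (at least 5 expected in the CG32208 family cells), 624 were at least 2-fold higher in these cells than in all other kept cells (5.62%) and 7947 at least 2-fold lower (71.6%). Of the 27 annotated genes within 5 genes of any of the 10, 19 could be compared, and 12 of these were at least 2-fold higher, 9 of them at least 8-fold, with 4 at least 2-fold lower. Their median log2 ratio was 1.74, against a median of −1.78 over all features compared. The minimum counts the UMIs of both sets together, so a gene can pass through its UMIs in the CG32208 family cells alone. CG34248, asRNA:CR46047 and CR42842 did so, with 892, 134 and 105 UMIs there and under 0.1 CPM elsewhere. Their place among the 12 and the 9 was thus fixed by the filter, and neighbours low in all cells were left out.

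CG13051 and CG13069, beside CG13068, were at 5634 and 6451 CPM against 24 and 24.7 CPM elsewhere, log2 ratios of 7.88 (interval 7.84 to 7.92, counting error only) and 8.03 (7.99 to 8.07). CG13069 stood at 2736, 7731, 5968 and 6353 CPM in pairs 1 to 4, again lowest in pair 1. CG14095, the neighbour of the group of 6, reached 21256 CPM (10948, 20058, 22492 and 22415 CPM over the pairs) against 150 CPM, with a UMI in 99.2% of the CG32208 family cells. CG13049, between the outer members of the group of 4, was at 29290 CPM (40694, 27347, 30601 and 28026 CPM) against 748 CPM, a ratio of 5.29, and like CG13047 it was not low in pair 1. CG34248, which lies between CG13068 and CG13067, had 892 UMIs in these cells (49.3 CPM) and a ratio of 9.96 (9.15 to 11.10), or 10.94 without pair 2. The unit annotated as CR42842 had 105 UMIs in them and none in any other kept cell, which puts it at least 411-fold higher when 3 UMIs over all other cells are taken as the floor. It is annotated as a pseudogene, which can take reads of a near-identical gene, and its span overlaps that of hpRNA:CR32207 on the opposite strand (11.3 CPM, ratio 0.81).

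The run of high neighbours had gaps. CG13065, inside the group of 4, had 47 UMIs and a log2 ratio of 0.17 (−0.31 to 0.59), and CG4962 and CG4982 were lower in the CG32208 family cells, at ratios of −1.29 and −1.82 (0.49 for CG4962 when ratios are centred on the median feature, −0.81 for it without pair 3, and −1.10 for CG4982 without pair 2). asRNA:CR46047, annotated on the opposite strand of CG18294, was at 7.40 CPM with a ratio of 6.20 (5.56 to 6.97). Its span covers that of CG18294, whose level was far higher, and the sources used here do not say whether the counting used strand.

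The genes that set the CG32208 family cells apart most from other cells were of the same kind as the 10: short, mostly unnamed and often in runs. By a fixed rule, the 20 with the largest ratio were taken among features with at least 100 UMIs, a UMI in at least 25% of these cells and a 2-fold difference in every library pair, which 277 features met. CG14573 led, at 2906 CPM (276, 3548, 2053 and 3614 CPM in pairs 1 to 4) against 2.70 CPM elsewhere, a log2 ratio of 10.07 (9.95 to 10.19). CG13674 followed with 6294 against 7.57 CPM and CG13679 with 9730 against 16.5 CPM. CG13678 had a UMI in 99.5% of the cells, at 11964 CPM (5817, 14054, 10463 and 12575 CPM) against 34.1 CPM and in 4.30% of other cells. Each of these 4 was lowest in pair 1. A level at least 2-fold above the other cells of that pair was a condition of their choice.

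The remaining leading genes were CG14569, Ccp84Ae, CG13239, CG13069, CG11370, CG42819, CG13051, CG14568, CG32266, CG14570, CG14095, CG2816, CG17190, CG14752, CG16820 and Cpr64Ad, with ratios from 9.06 down to 6.24. That of CG11370 was 9.14 without pair 3, and that of Cpr64Ad 6.99 without pair 1. Of the 20, 14 (70.0%) lie on 3L, against 21.0% of the 2661 features with the same minima of UMIs and cells. CG13679, CG13674 and CG13678 lie within 20.2 kb (3L, 8202792 to 8222953), and CG14570, CG14569, CG14568 and CG14573 within 5.11 kb (3L, 21729675 to 21734788). Their median span was 755 bp, against 4712 bp over those 2661 features. Ccp84Ae and Cpr64Ad are members of the Cpr family, and Cpr64Ad was the most abundant feature of these cells, at 39742 CPM (52134, 39481, 39999.6 and 37984 CPM) against 526 CPM.

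A few features made up much of the RNA. The 20 most abundant features held 33.9% of the UMIs of the CG32208 family cells, against 14.8% in all other kept cells and 14.1% in Tweedle cells, and 57 features made up the first 50% of their UMIs as against 173. CPM is a share, so a few very abundant transcripts lower the shares of all others, and the median feature stood at a log2 ratio of −1.78. Centred on that median, 2559 features were at least 2-fold higher and 3070 lower, so that higher features made up 45.5% of those calls in place of 7.28%. Counts of lower genes below are to be read beside that median.

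The 10 lowest genes among those above 200 CPM in other cells were Pebp1, CG8629, CG6415, Obp99c, ppl, Npc2g, NimB3, DNaseII, CG33494 and NimB2, with ratios from −7.53 to −5.82. Without pair 2 those of Obp99c, DNaseII and NimB2 were −7.21, −7.22 and −6.72. Pebp1 was at 4.20 CPM against 780 CPM and Npc2g at 19.3 against 1371 CPM. NimB2 and NimB3 belong to the Nimrod family, whose members include hemocyte receptors.

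The tracheal list, of genes known from tracheal cells, held 8 genes, all of them compared. Of these 5 were at least 2-fold higher in the CG32208 family cells than in other cells and none lower, with a median log2 ratio of 1.70 and 3.49 above that of all features. btl was at 79.6 CPM (66.6, 65.6, 91.5 and 81.0 CPM in pairs 1 to 4) against 4.02 CPM, a ratio of 4.31 (4.18 to 4.43). trh was at 270 CPM (197, 233, 274 and 308 CPM) against 29.0 CPM, a ratio of 3.22 (3.16 to 3.27), and pair 1 was not set apart for either gene. pio, which codes for an apical zona pellucida protein, had a ratio of 2.36 and kni, a nuclear receptor of tracheal branches, 2.05. The other 3 genes, Gasp (0.77), dysf (0.59) and uif (−0.57), did not reach 2-fold, though dysf stood at 1.22 without pair 4. The list did not run this way against the most similar cells, described further on. Against Tweedle cells 2 of the 8 were higher and 3 lower (median −0.37, summed level 1514 against 3504 CPM), and against trh and btl cells, which trh and btl chose, none was higher and 4 were lower (median −0.98, 1514 against 3293 CPM).

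By cell, trh had a UMI in 90.5% of the CG32208 family cells (87.9% to 92.7%) and btl in 63.9% (60.0% to 67.8%), against 7.0% and 1.56% of all other kept cells. Muscle, hemocyte and neuron classes had trh in 3.08%, 1.36% and 15.6% of cells and btl in 1.10%, 0.330% and 0.404%. Depth differed, with a median of 16924 UMIs against 3995, and at 1000 UMIs a cell trh was seen in 23.7% against 2.56% and btl in 9.15% against 0.277%. The 58 cells without a trh UMI were shallower (median 5563 UMIs against 19457) and 0, 30, 18 and 10 of them came from pairs 1 to 4. TwdlM was at 5053 CPM in them and at 94.6 CPM in the 555 with trh, but it had a UMI in 15.5% and 11.7% of these cells, so that few cells carried the higher level. Cpr64Ad was at 11790 against 40666 CPM.

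Of the 699 kept cells with a UMI of both trh and btl, 376 (53.8%) were CG32208 family cells. Pair 1 again stood apart, with 15 of 135 (11.1%, 6.35% to 17.7%), against 104 of 156 (66.7%), 133 of 222 (59.9%) and 124 of 186 (66.7%) in pairs 2 to 4, although the median depth of such cells was similar, from 16518 to 19035 UMIs. Cells with both genes were also fewest in pair 1. It held 224 cells with at least 3 UMIs of trh, of which 7.59% met the rule, against 325, 332 and 328 cells with shares of 38.5% to 44.6% in pairs 2 to 4, and 62 cells with at least 2 UMIs of btl (17.7% met the rule) against 114, 169 and 128 (64.5% to 71.1%). The share that met the rule was lower in pair 1 by each of these measures. Over all kept cells of a pair, trh was at 39.0 CPM in pair 1 and 48.9 to 53.3 CPM in pairs 2 to 4, whereas CG32208 was at 6.25 CPM against 200 to 251 CPM.

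The Cpr family and related chitin-binding cuticle proteins made up 90424 CPM of the CG32208 family cells (85463 to 127099 CPM over the pairs), against 5347 CPM in all other cells. A small number of genes carried this sum. Of 76 genes compared, 19 were at least 2-fold higher and 46 lower, and the median ratio of −1.47 lay 0.31 above that of all features, so its sign turns when ratios are centred. Without pair 2 this median was −2.79. Ccp84Ae (2017 against 4.49 CPM, ratio 8.81), Cpr64Ad (6.24), Ccp84Ag (17826 against 294 CPM, 5.92) and Cpr64Ab (23217 against 814 CPM, 4.83) led. The list takes every symbol that starts with Cpr, which also brings in Cpr itself, the cytochrome P450 reductase (ratio 1.28), which is no cuticle protein.

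Of the Tweedle genes, 1 was high. Twdlbeta stood at 25081 CPM (29087, 22705, 26559 and 25043 CPM in pairs 1 to 4) against 462 CPM elsewhere, a log2 ratio of 5.76 (5.75 to 5.77), with a UMI in 97.6% of cells. Of the 20 Tweedle genes compared it was the only one at least 2-fold higher, 12 were at least 2-fold lower, and the median of −1.40 turns to 0.38 when centred. TwdlY (0.65), TwdlE (−0.07) and TwdlV (−0.14) came next, and they were uneven over the pairs: TwdlY was at 2.47, 433, 61.8 and 1.71 CPM and had a UMI in 3.92% of cells. Its ratio was −1.47 without pair 2, and that of TwdlV −2.90 without pair 3.

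Genes that make chitin and shape its matrix were higher as a list. Of 26 compared, 12 were at least 2-fold higher and 6 lower than in other cells, with a median of 0.77, and 2.56 above that of all features. reb, which is needed for chitin deposition, was at 333 CPM (274, 325, 338 and 342 CPM) against 7.77 CPM, a ratio of 5.42 (5.34 to 5.50), and its partner exp at 647 against 80.1 CPM, 3.01. The chitinase Cht5 (3.60) and the chitin deacetylase Cda5 (2.75) completed the leading 4, and the ratio of Cht5 was 4.52 without pair 1. kkv, the chitin synthase, was at 36.5 against 33.4 CPM, a ratio of 0.13 (0.01 to 0.24). The 6 lower genes included Idgf1, Idgf2, Idgf3 and Idgf6, chitinase-like growth factors that are made by other tissues too,.

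Of 11 zona pellucida proteins of the apical matrix, 4 were at least 2-fold higher and 5 lower (median −0.63, 1.15 above all features). These 4 were qsm (ratio 2.60), pio (2.36), pot (1.76) and dyl (1.29, or 2.33 without pair 1). Of 14 genes of sclerotisation and pigment, which harden and darken cuticle, 3 were at least 2-fold higher and 8 lower (57.1%, against 71.6% of all features), with a median of −1.54 that is 0.24 above that of all features. Duox, an oxidase (2.25), yellow-c (1.54) and stw, the laccase straw (1.33), were the higher ones, and Ddc and ple, which make the catecholamines used for tanning, were at 0.08 and −1.82.

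The Osiris family, a set of insect genes of which most lie in 1 cluster and which are expressed in cuticle-secreting epithelia, summed to 39603 CPM against 7995 CPM in other cells. Here pair 1 differed from the rest in the other direction: the sum was 123188 CPM in its 20 cells and 27454, 43521 and 34574 CPM in pairs 2 to 4. Of 19 compared, 9 were at least 2-fold higher and 6 lower, with a median of 0.67, which was 1.95 without pair 1 and 0.27 without pair 3. Osi2 (1303 against 75.7 CPM, ratio 4.11), Osi15 (20648 against 2290 CPM, 3.17), Osi20 (11804 against 1662 CPM, 2.83) and Osi19 (1.91) led. Osi6 and Osi7 were lower at −4.89 and −2.37. Without pair 1, whose other cells held most of their UMIs, these ratios were −3.02 and −0.93, and those of Osi20 and Osi19 were 3.43 and 2.55.

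**Figure D3:**
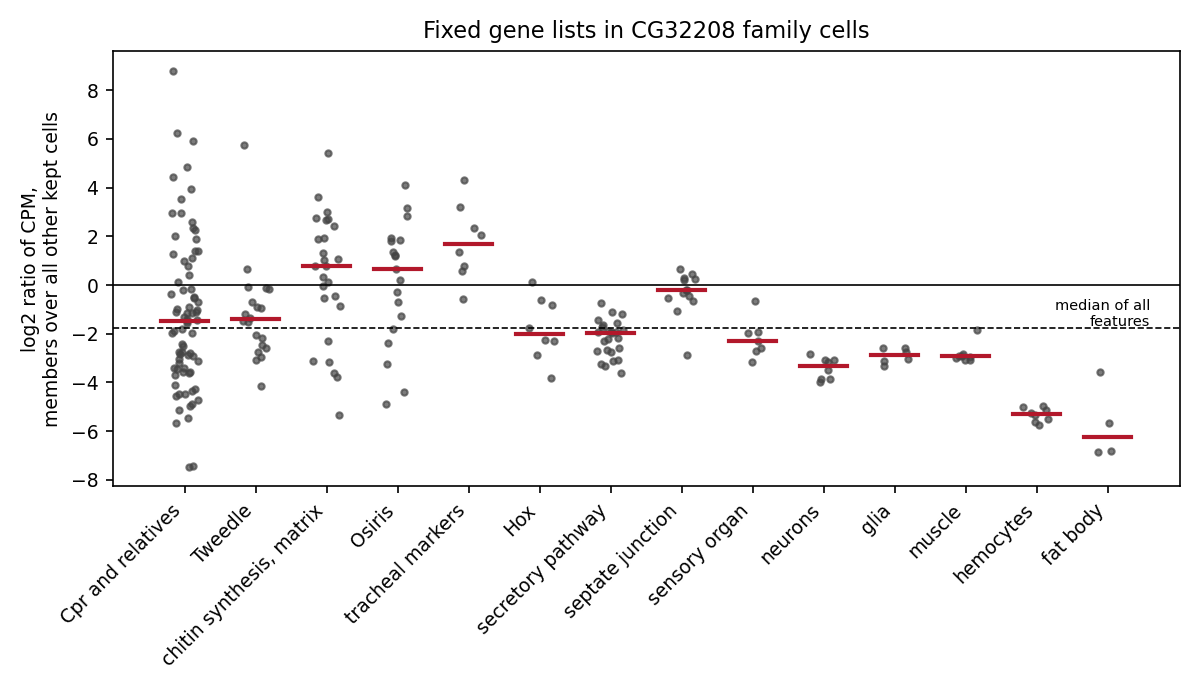
Log2 ratio of CPM in CG32208 family cells over all other kept cells for the genes of 14 fixed lists (grey points, 1 per gene with enough UMIs to compare) with each list's median (red bar). The dashed line is the median of all 11095 features at −1.78. The tracheal median is at 1.70, and the neuron, glia, muscle, hemocyte and fat body medians lie below the dashed line.

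The cells most like them were compared next. Tweedle cells were the 1781 kept cells outside the rule with at least 2 UMIs of at least 2 Tweedle genes, and the trh and btl cells were the 243 with a UMI of both genes that met neither rule. Against Tweedle cells, 428 of 10639 features were at least 2-fold higher (4.02%) and 6337 lower (59.6%), with a median of −1.25. Against trh and btl cells, 1504 of 9847 were higher (15.3%) and 1927 lower (19.6%), with a median of −0.20, and each of these counts moved when the cells of 2 groups with muscle and neuron transcripts (below) were left out, to 782 and 3371.

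Tweedle cells carried other cuticle genes. Against them 1 of 24 Tweedle genes was higher and 23 lower, which the choice of those cells helps to fix, and Twdlbeta was the 1 higher, at 25081 against 1624 CPM (ratio 3.95). Of 82 Cpr family genes, 10 were higher and 66 lower (median −4.00), although the summed level was 90424 against 27151 CPM. Cpr65Eb was at 0.442 against 615 CPM and Edg78E at 0.276 against 394 CPM, and ImpL1, an ecdysone-inducible gene, at 0.497 against 568 CPM. The ratio of Edg78E was −10.34, or −8.83 without pair 4, and that of ImpL1 −10.08, or −8.48 without pair 1. CG13216, CG10597 and CG8541 had no UMI in the CG32208 family cells, at least 291-fold, 238-fold and 98.0-fold lower with a floor of 3 UMIs. These bounds were 83.4-fold for CG13216 without pair 1, 116-fold for CG10597 without pair 3 and 144-fold without pair 2, and 47.1-fold for CG8541 without pair 4 and 56.2-fold without pair 3. In the other direction CG14572 (ratio 9.93, 8.93 to 11.50), CG14569 (9.91), CG34248 (9.74) and CG14573 (9.67) led, and without pair 3 the ratios of CG14569 and CG34248 were 10.57 and 11.20. The genes of both directions were taken among features with at least 100 UMIs in both sets together, so a gene can enter through 1 set alone. CG34248 did so, with 892 UMIs in the CG32208 family cells and 0.0385 CPM in Tweedle cells, as did CG13216, CG10597 and CG8541 through the Tweedle cells. Their place here was thus in part fixed by the filter. Of 26 chitin genes 2 were higher than in Tweedle cells and 13 lower (50.0%, against 59.6% of all features), with a median of −0.92. The chitin deacetylases verm and serp were at 409 against 2055 CPM and at 143 against 1248 CPM.

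Beside trh and btl cells outside the rule, the CG32208 family cells had more cuticle protein RNA and less Osiris RNA. All 18 Tweedle genes compared were at least 2-fold higher (median 4.53, or 4.03 with genes at 0 set to a floor of 3 UMIs), which the choice of the comparison cells helps to fix. Of 62 Cpr family genes, 41 were higher and 8 lower (median 1.78), at 90424 against 38013 CPM. Here 7 genes had no UMI in the comparison cells, and the median was 1.55 with them at the floor. Of 18 Osiris genes, 2 were higher and 16 lower (median −2.80), at 39603 against 146680 CPM. Osi15 was at 20648 against 58099 CPM and Osi20 at 11804 against 42169 CPM. trh and btl themselves, which chose the comparison cells, were at 270 against 362 CPM and 79.6 against 133 CPM. Of the 243 comparison cells 97 came from pair 1, and of the CG32208 family cells 20, so the library pairs and the 2 kinds of cell overlap.

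Levels also differed among the CG32208 family cells by the number of the 10 genes they held, which is a cut by the genes of the rule. From the 91 cells with 4 or 5 of the genes at 2 or more UMIs, through 80 with 6 or 7 and 171 with 8 or 9, to the 271 with all 10, Osi15 was at 43764, 32871, 28043 and 14250 CPM and Osi20 at 26685, 20453, 16629 and 7584 CPM. Cpr64Ad ran the other way, at 18367, 20832, 25263 and 48742 CPM, as did CG13678, at 4011, 6895, 8041 and 14669 CPM. trh showed no such order (241, 313, 288 and 264 CPM), and btl was at 125, 121, 102 and 62.8 CPM. The median depth of these classes was 7857, 10452, 13767 and 28259 UMIs. Pair 1, whose CG32208 family cells held the most Osiris RNA, gave 6 of the 91, 2 of the 80, 7 of the 171 and 5 of the 271 cells. The part of depth and of library pair in these levels was not tested.

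Of 14 epidermal transcription factors and denticle genes, 2 were at least 2-fold higher and 8 lower than in other cells (median −1.22, 0.56 above all features). vvl, a POU factor of trachea and epidermis, was at 1029 CPM (722, 1040, 1114 and 971 CPM) against 275 CPM, with a UMI in 98.4% of cells, and ovo, the denticle regulator, at 165 against 34.4 CPM, a ratio of 2.26. vvl was also common outside these cells, in 27.3% of other cells and 72.9% of Tweedle cells. grh, a regulator of epithelial barrier genes, was at 81.0 against 59.0 CPM (0.46).

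Hox genes, which mark position along the body axis, gave no call in the higher direction: of 8, 5 were lower, with a median 0.22 below that of all features. Ubx was at 163 against 149 CPM (0.14) and Antp at 94.9 against 146 CPM (−0.62), whereas the head genes Dfd (−3.80) and lab (−2.89, or −4.00 without pair 4) were near 0 at 0.994 and 0.773 CPM. Of 13 segment polarity and limb genes 1 was higher (7.69%, against 5.62% of all features) and 5 were lower (38.5%, against 71.6%). Their median was 1.09 above that of all features. The higher gene was vg, at 26.5 against 12.5 CPM (1.09), with a UMI in 6.04% of cells, none in pair 1 and a ratio of 0.78 without pair 4. Of 16 ecdysone receptor and response genes, 2 were higher (12.5%) and 6 lower (37.5%, below the 71.6% of all features). Their median was −0.63, which is 1.16 above that of all features. Eip74EF, an ecdysone-induced factor, was at 250 CPM (112, 260, 230 and 283 CPM) against 31.8 CPM, a ratio of 2.98 (2.92 to 3.03), and ImpE2 at 156 CPM (850, 76.1, 176 and 109 CPM) against 61.7 CPM, where pair 1 was the high one. The ratio of ImpE2 was 1.34, with 3.54 without pair 1 and 0.85 without pair 3.

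Genes of the secretory pathway were low in share: of 25 compared none was higher and 24 were lower, at a median of −1.98, which is 0.19 below all features, and at 1537 against 6549 CPM. Of 13 septate junction genes, which seal epithelial cells to each other, none was higher and 2 were lower (median −0.22, 1.57 above all features).

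Markers of most other cell types were further below the level of other cells than features in general, of which 71.6% were lower. The other cells include those cell types, which helps to fix this. Of the 8 hemocyte markers all 8 were at least 2-fold lower (median −5.29, 74.8 against 2749 CPM), as were all 8 neuron markers (−3.33, 231 against 2424 CPM), all 8 muscle markers (−2.93, 677 against 4094 CPM), all 6 glial markers (−2.88), all 4 fat body markers compared (−6.25), all 5 midgut markers compared (−4.78) and all 6 oenocyte markers compared (−3.16). By pair, the summed level in the CG32208 family cells ran from 98.7 to 1090 CPM for muscle, 39.5 to 283 CPM for neurons and 11.1 to 101 CPM for hemocytes, and pair 1 held the lowest muscle and neuron sums. Of 7 sensory organ markers 6 were lower (−2.32, which is 0.53 below all features), of 7 salivary gland and foregut markers 6 (−3.09) and of 7 hindgut and Malpighian tubule markers 4 (57.1%, 0.22 below all features). The 10 cell cycle genes were all at least 2-fold lower (−3.44), as were the 8 heat shock genes compared (−2.95), which tissue dissociation can induce. Against trh and btl cells the median of all features was −0.20. Neuron, midgut and oenocyte markers lay near it there, at medians of −0.14, −0.14 and −0.12. Glial, muscle, hemocyte and fat body markers were at −0.48, −0.90, −1.48 and −2.99.

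Grouped without the 10 genes, the 613 cells fell into 8 groups of 156, 91, 83, 75, 73, 48, 45 and 42 cells. trh was present in all, at 183 to 361 CPM and in 82.1% to 100% of the cells of a group. Groups differed in how much of their RNA came from the 10 genes (1.95% to 9.65%), in Osiris level (1438 to 102829 CPM) and in depth (medians of 6442 to 55680 UMIs). Groups were not tested against each other, since their genes defined them.

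Group 1, the largest, was led by Reck, CG14568, CG14570, PGRP-LF, a peptidoglycan recognition protein, and CG13618, with 16267 CPM of Osiris genes and 4.74% of UMIs in the 10 genes. Group 2 (CG3108, lint, ImpE2, CG13272 and ect) held the highest Osiris level, 102829 CPM, and 12 of the 20 cells of pair 1. Group 5 (CG31176, CG15890, asRNA:CR46138, CG13058 and Cyp318a1) came next with 50899 CPM. In these 2 groups the 10 genes made up 1.95% and 2.32% of UMIs.

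Group 6 (CG14565, CG8012, CG14572, Cln3 and CG3604) was the opposite case. The 10 genes made up 9.65% of its UMIs, CG13067 alone 49144 CPM, while Osiris genes were at 1438 CPM, Osi20 at 18.5 CPM and Twdlbeta at 5606 CPM. Group 8 (CG14499, CG5246, CG5255, CG14820 and CG4017) was the deepest, with a median of 55680 UMIs, 7.49% of them in the 10 genes and 4557 CPM of CG32208. Group 3 was led by CG11380, Cpr65Ea, TwdlM, CG30101 and frm, with TwdlM at 1271 CPM but in 26.5% of its cells, so a minority carried these cuticle genes of the Tweedle cells.

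Groups 4 and 7 carried transcripts of other tissues. The muscle markers summed to 4027 CPM in group 4, against 55.8 to 620 CPM in the other groups and 4094 CPM in all other kept cells, and its leading genes were CG7059, CG43156, sna, Jheh1 and Fkbp59. A minority of its cells carried these genes: each leading gene had a UMI in 29.3% to 34.7% of them. The muscle marker Mhc had a UMI in 30.7% of them, against 19.3% of the cells of the other groups. The neuron markers summed to 2926 CPM in group 7, against 36.0 to 111 CPM in the other groups, its sensory organ markers to 1558 CPM, and it was led by Ir76b, a co-receptor of chemosensory neurons, pHCl-1, CG32668, CG13251 and CG32225. No doublets were removed, and the part of these transcripts in the other levels of the 2 groups was not tested. Group 4 also held the highest hemocyte (419 CPM, against 12.6 to 46.3 CPM elsewhere), fat body (166 CPM) and cell cycle (145 CPM) sums, and group 7 the highest glial sum (452 CPM). Groups 3, 4, 6 and 7 held no cell of pair 1. Without the 120 cells of groups 4 and 7, 493 remained, and the counts against all other cells and against Tweedle cells stayed within 1.5 times of those given.

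**Figure D4:**
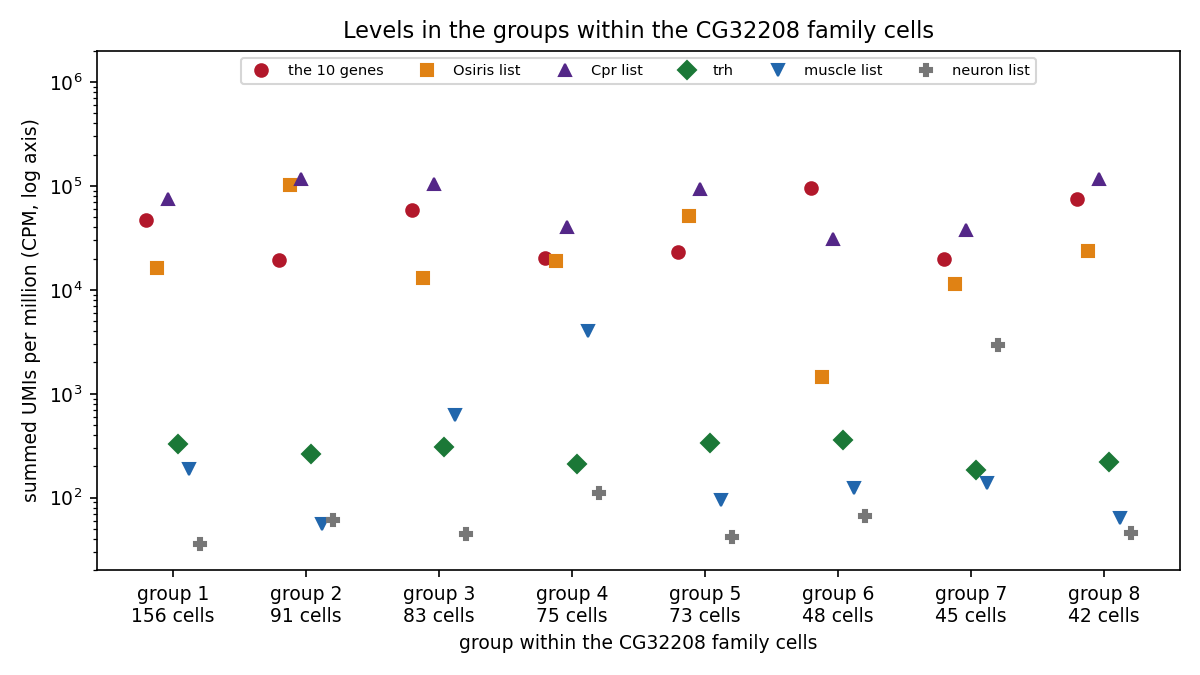
CPM (log axis) of the 10 genes, the Osiris, Cpr, muscle and neuron lists and trh in the 8 groups of CG32208 family cells. Group 2 has the highest Osiris level (102829 CPM) and group 6 the lowest (1438 CPM), while trh stays between 183 and 361 CPM. The muscle list reaches 4027 CPM in group 4 and the neuron list 2926 CPM in group 7.

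Grouping all 27932 kept cells without the 10 genes gave 42 clusters, and 1 of them held 570 of the 613 (93.0%, 90.7% to 94.9%). By pair the share was 95%, 88.6%, 93.9% and 96.4%. It fell to 64.6% at a resolution of 2.0, where the cluster was split and 97.1% of its cells met the rule. The other 43 cells were spread over 14 clusters with at most 13 in any of them. They were as deep as the rest (median 19842 UMIs), had trh in 67.4% of cells and TwdlM at 2960 CPM, with a UMI of it in 27.9% of them, and the 10 genes made up 8315 CPM against 44697 CPM in the main cluster.

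The main cluster also held 408 cells that did not meet the rule, 333 of them with 1 to 3 of the genes at 2 or more UMIs and 75 with none. Of these 87, 99, 117 and 105 came from pairs 1 to 4, fewest from pair 1 although it held the most kept cells. The whole cluster held 106 cells of pair 1, against 277, 302 and 293 of pairs 2 to 4. The rule was met by 17.9% of those of pair 1, against 61.3% to 64.3%. At a resolution of 0.5 the cluster held 293 cells of pair 1, and 6.83% of them met the rule, against 57.6% to 64.0% in pairs 2 to 4. trh and btl were at 296 and 112 CPM in the 408 cells, against 283 and 84.7 CPM in the 570. Osi15 was at 60169 against 21869 CPM, Osi20 at 44111 against 12493 CPM and CG13678 at 1089 against 12662 CPM. Their median depth was 7470 UMIs, against 16614. The cluster also took in 152 (62.6%) of the trh and btl cells and 93 (5.22%) of the Tweedle cells.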

How the data were processed

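The authors dissociated whole embryos, made 10x Genomics libraries, and used Cell Ranger 3.1.0 with BDGP6 to count reads and to combine the 8 runs. The deposited matrix holds counts (whole UMIs per gene and barcode, not normalised per cell in the file): 17717 features, 73765 barcodes and 252748748 UMIs. Suffixes n and n+4 were taken as 2 runs of 1 library and summed to 38531 cells; the same molecule can be counted in both runs, so intervals are too narrow. Cells with at least 200 genes and under 20% mitochondrial UMIs were kept. No doublets were removed.

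UMIs were summed over the cells of a set (Python 3.11.15, numpy 2.4.6, scipy 1.17.1, pandas 2.3.3) and given as CPM. Log2 ratios add 0.5 UMI to each sum, and their 95% intervals are exact conditional binomial, for counting error only. A feature was called at a log2 ratio of at least 1 in size when 5 UMIs were expected. The pooled matrix was treated as 1 sample because its suffixes carry no sample names. Barcode sharing does separate 4 library pairs, but the cells compared were chosen by their own transcripts, so no p-values or paired fits were made, and values per library pair are given in their place. Clusters used scanpy 1.11.5 and leidenalg 0.10.2 (3000 variable genes, 50 components, resolution 1.0). Groups within the 613 cells used 1000 variable genes, 20 components and resolution 0.5.

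The genes named were the 10 of the rule, the 20 leading and 10 lowest features, up to 4 genes of each list with at least 20 UMIs, the 8 leading in each direction against Tweedle cells, neighbours with at least 20 UMIs and up to 5 leading genes of each group. Other genes named (Gasp, dysf, uif, kkv, the Idgf genes, Ddc, ple, verm, serp, Osi6, Osi7, Dfd, lab and TwdlM) were chosen after their values were seen. The gene written CG32208 in the report is 825-Oak in the deposited file; CG32208 is its RefSeq synonym. The member cells and the lists were chosen with earlier results of these data known. The annotation named 17587 of the features, including all 10 genes. Alternatives were the UMI and gene minima, the run summing, the cell filter, thinning, scaling totals, each library pair left out, and cluster settings. Scripts were tested on simulated data.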

Additional observations from a re-analysis of the deposited data

Results flagged for a closer look

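Of 41 values tested over the 4 library pairs, 9 had a pair further from the nearest other pair than Dixon's 95% criterion for 4 values allows, and in all 9 that pair was pair 1. Chance flags about 1 in 20 groups, and these values share libraries and cells. They include the share of member cells and the level of each gene of the rule that picked those cells. Flags on these are thus not separate evidence. Of the genes of the rule, only CG12519 and CG13047 were flagged. The criterion weighs a gap against the range of the pairs, not fold. Over all kept cells CG13047 was 2.82 to 2.94-fold lower in pair 1 than in pairs 2 to 4. CG32208 (31.9 to 40.1-fold lower) and CG13066 (32.2 to 49.8-fold lower) were not flagged. In pair 1 the CG32208 family cells were 0.274% of kept cells, and 11.1% of the cells with trh and btl. The summed Osiris level in its CG32208 family cells was 123188 CPM. Over all kept cells of pair 1, CG12519 was at 21.3 CPM (493 to 586 CPM in pairs 2 to 4), CG13047 at 299.9 CPM (844 to 882), Cpr64Ad at 1947 CPM (4011 to 4270) and reb at 8.87 CPM (39.0 to 41.8). Osi6 and Osi7 were high in pair 1, at 3945 CPM (117 to 400) and 2186 CPM (82.0 to 251).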

How the results depend on the processing

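The number of member cells was 703 with 1 UMI or more per gene, 585 with 3, 677 with 3 or more of the genes, 567 with 5 or more, 605 with the larger count of both runs, 538 with a mitochondrial limit of 10% and 444 with the study's own cell filter. It was 389 after thinning to 1000 UMIs, which lowers every count. Leaving out a library pair gave 412 to 593 member cells and 1.93% to 2.88% of kept cells. Asked for within each library pair, 394 features were at least 2-fold higher than in other cells, 211 higher and 2960 lower than in Tweedle cells, and 202 higher and 499 lower than in trh and btl cells, a stricter demand by construction. Centred on the median feature, 2559 were higher and 3070 lower than in other cells, and 1472 higher and 2269 lower than in Tweedle cells, where higher features then made up 39.3% of calls in place of 6.33%. Without the members of the 2 groups with muscle and neuron transcripts, 782 were higher and 3371 lower than in trh and btl cells; the cause was not tested.

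Over the library pairs left out in turn, the median of the Cpr list against other cells ran from −2.79 to −1.28, of the Osiris list against other cells from 0.27 to 1.95, and of the Osiris list against Tweedle cells from −2.01 to −0.020, the last without pair 1. The tracheal median was 1.42 with at least 7 of the genes. The share in the main cluster was 64.6% at resolution 2.0 and 88.1% with 1000 variable genes. The salivary gland and foregut median against trh and btl cells turned from 1.20 to −0.77 without the 2 groups, and to −0.23 with genes at 0 set to the floor. Centring turned CG13046 against Tweedle cells to 0.010 and CG4962 against other cells to 0.49. In all, 214 of 233 alternative values of the main results moved by less than the spread over the pairs or, for counts, by less than 1.5 times. Of 1982 values of single genes and lists, 1898 were counted as unchanged. For lists this used the same spread, but for single genes only a kept direction at 2-fold or more. By that rule 556 of 561 single-gene values against other cells and 565 of 572 against Tweedle cells were unchanged. The largest single-gene shifts were 2.59 and 4.59 log2 units. Centring, the 2 groups, the floor and the single-gene ratios of list genes without a library pair were chosen after seeing the data. A search for relatives by protein sequence was not run. No fit paired by library pair was run, since the suffixes carry no sample names and the cells compared were chosen by their own transcripts. Depth limits low genes: a gene with 0 UMIs in these cells can stand at up to 3 of their 18105195 UMIs.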
